A study of Mus musculus with 2 samples.

Results

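The 10 genes described here are the 4 receptors of fibroblast growth factors (FGFs), Fgfr1, Fgfr2, Fgfr3 and Fgfr4, and 6 genes that respond to receptor signalling, Spry1, Spry2, Spry4, Dusp6, Etv4 and Etv5. They were taken by symbol from the 32285 genes of the count table, and all 10 were found, each under 1 identifier. FGFs are secreted proteins that bind tyrosine kinase receptors on the cell surface together with heparan sulfate. An active receptor signals through the adaptor Frs2 and the Ras, Raf, MEK and ERK cascade, and ERK raises transcription of Etv4 and Etv5, which are ETS transcription factors, and of feedback inhibitors. The Sprouty proteins damp the signal between receptor and Raf, and Dusp6 is a phosphatase that switches ERK off again. Other growth factor receptors use the same cascade, so the response genes are not particular to FGF. In the embryo this pathway is known for limb outgrowth, for the growth of cartilage through Fgfr3, and for the pool of muscle progenitors.

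The data were 2 libraries of single cells from the trunk and limbs of E14 mouse embryos, sorted on a red tdTomato (tdT) reporter and counted at the 3′ ends of transcripts with unique molecular identifiers (UMIs). Cells of both libraries carried Cre recombinase driven by the promoter of Myf5, a myogenic factor, a Rosa26-LSL-tdtomato allele that Cre turns on, and floxed Srsf2, which encodes a splicing factor. In 1 genotype, SRSF2f/f/Myf5-Cre/tdT, both Srsf2 alleles were floxed, and in the controls, SRSF2f/w/Myf5-Cre/tdT, 1 was, so the control was heterozygous and carried Cre as well. The Cre line was on C57BL/6J, and how many embryos entered a library is not given in the sources used here. The sorted cells held many types beside muscle. The sources give the libraries opposite genotypes. Library A is titled SRSF2f/f/Myf5-Cre/tdT, but its quality summary is headed as the heterozygous control (Het/tdT). Library B is titled SRSF2f/w/Myf5-Cre/tdT, but its summary is headed as the mutant (MKO/tdT). Values are given here by library, ratios are library B over library A, and no genotype is read from them.

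After quality limits, library A held 12523 cells with 151555303 UMIs and library B 10345 cells with 122938843 UMIs, with medians of 10751 and 9480 UMIs per cell. A total of 74 barcode sequences occurred in both libraries, 50 of them in kept cells. With 1 library per genotype there is no replicate check and no test. Intervals are exact 95% intervals that cover counting error only. Srsf2, the targeted gene, had 33179 UMIs in library A and 18781 in library B, a level of 219 and 153 counts per 1000000 UMIs of the same cells (CPM) and a log2 ratio of -0.52 (-0.54 to -0.49). Srsf2 was lower in library B in all 12 classes given, with 252 and 178 CPM in muscle. Where the counted 3′ ends lie relative to the deleted part of Srsf2 was not determined here, so this count need not measure the deletion. Cells were placed in classes by fixed limits on the UMIs of marker genes, and none of the 10 genes is a marker. The limits placed 18818 of 22868 cells (82.3%) in 1 of 13 classes, and 12 classes had at least 20 cells in each library. In each of these, at most 1 marker of the list was not highest in its own class, and 1 erythroid marker was at 0 in library B. The muscle class held 2310 cells in library A and 114 in library B, the chondrocyte class 2215 and 2429, the mesenchyme class 3986 and 2787, the endothelial class 356 and 881 and the tendon class 365 and 139. The other classes were osteoblast, neuron, Schwann, immune, pericyte, epithelial and erythroid.

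To show sequence around the starts of these genes, windows of 250 bases before to 50 after the start were read from RefSeq on GRCm38.p6. There were 9 windows for 7 genes, and none was used for Fgfr1, Spry4 or Etv4. They were searched on both strands for CCGGAA, a core bound by ETS factors such as Etv4 and Etv5, for TGANTCA, the AP-1 element, for CAGCTG, an E-box of the kind that myogenic factors bind, and for TGACGTCA, the cAMP response element. Of all 32851 windows, 14.9% hold CCGGAA, 7.81% TGANTCA, 16.3% CAGCTG and 1.79% TGACGTCA. The 4 windows that hold a match are shown, with the match in capitals. Those of the outer start of Fgfr3 (chr5:33721474-33721773, plus strand) and of the outer start of Etv5 (chr16:22439521-22439820, minus strand) hold 1 CAGCTG each, and those of Fgfr4 (chr13:55152568-55152867, plus strand) and Spry2 (chr14:105896770-105897069, minus strand) hold 1 CCGGAA each. A match is a description of the letters and not a binding site.
Fgfr3: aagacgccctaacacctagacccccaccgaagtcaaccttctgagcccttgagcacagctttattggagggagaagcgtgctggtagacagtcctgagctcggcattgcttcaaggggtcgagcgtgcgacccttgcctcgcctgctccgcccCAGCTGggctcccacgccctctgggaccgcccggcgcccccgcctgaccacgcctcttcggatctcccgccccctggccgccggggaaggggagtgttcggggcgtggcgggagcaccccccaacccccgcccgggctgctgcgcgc
Fgfr4: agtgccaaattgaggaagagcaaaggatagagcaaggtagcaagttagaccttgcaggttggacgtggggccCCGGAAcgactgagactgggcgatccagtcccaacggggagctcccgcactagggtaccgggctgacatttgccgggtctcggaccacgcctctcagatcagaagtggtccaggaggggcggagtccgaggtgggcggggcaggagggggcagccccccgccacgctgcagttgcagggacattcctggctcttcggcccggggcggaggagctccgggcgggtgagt
Spry2: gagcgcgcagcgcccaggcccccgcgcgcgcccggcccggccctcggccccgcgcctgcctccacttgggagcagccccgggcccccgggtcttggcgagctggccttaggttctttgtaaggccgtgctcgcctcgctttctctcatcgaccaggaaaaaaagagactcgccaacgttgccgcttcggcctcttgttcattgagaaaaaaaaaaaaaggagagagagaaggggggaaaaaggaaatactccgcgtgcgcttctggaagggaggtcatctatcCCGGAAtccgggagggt
Etv5: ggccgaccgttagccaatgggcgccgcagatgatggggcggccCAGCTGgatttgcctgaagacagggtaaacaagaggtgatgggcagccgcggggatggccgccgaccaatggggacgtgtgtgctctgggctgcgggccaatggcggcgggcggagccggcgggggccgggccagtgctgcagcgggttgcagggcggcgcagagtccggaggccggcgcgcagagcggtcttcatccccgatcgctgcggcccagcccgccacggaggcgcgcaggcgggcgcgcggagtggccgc
The other windows, of Fgfr2, Spry1 and Dusp6 and of the inner starts of Fgfr3 and Etv5, hold none of the 4 motifs.

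Each receptor had its own range of cell classes, and the highest class was mostly the same in both libraries. Fgfr1 was found throughout the connective tissues and cartilage, Fgfr2 in epithelium and skeleton, Fgfr3 in cartilage, and Fgfr4 in muscle. Of the 10 genes, 7 had their highest level in the same class in both libraries. The share of all genes that did so is not given here, so this count is not read as a trait of the 10 genes. The 3 exceptions among the 10 were Fgfr1, Spry2 and Etv5. In the exceptions, the intervals of the classes that changed places met in at least 1 library. Among the others, the interval of the highest class met that of the next for Spry4 and Etv4 in both libraries. For Dusp6 it did so in library B.

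**Figure D1:**
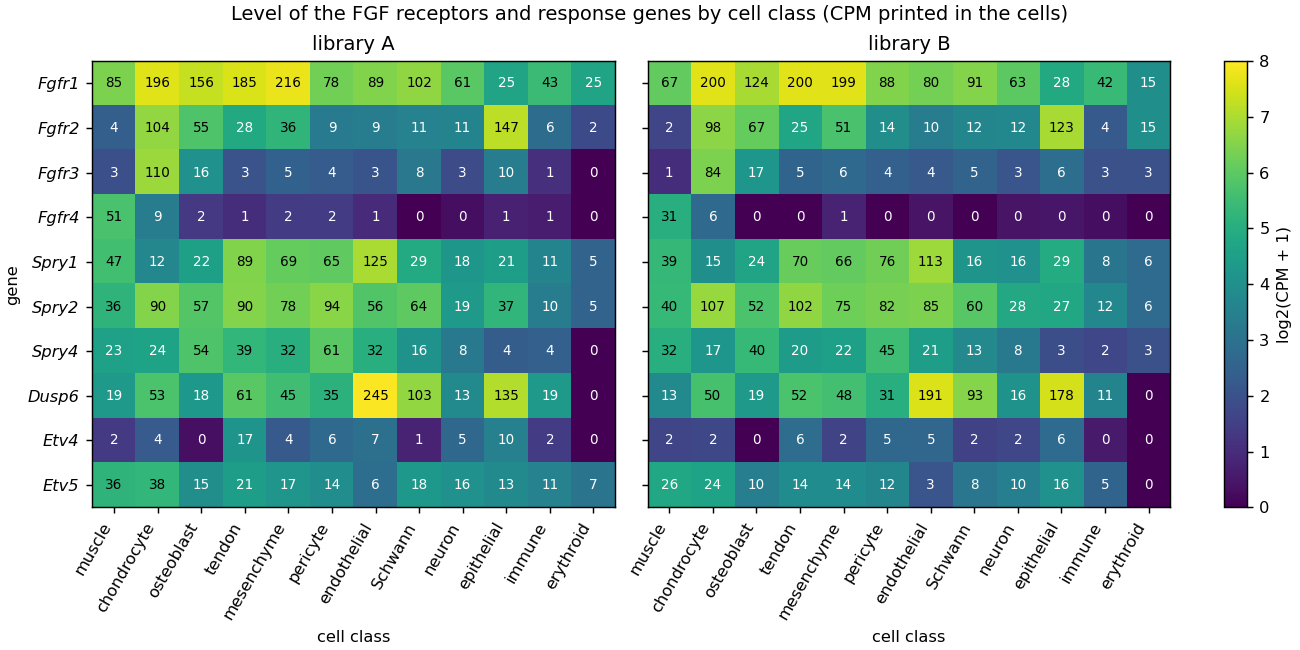
Level in CPM of the 10 genes (rows) in 12 cell classes (columns), with library A on the left and library B (headed MKO/tdT, titled f/w) on the right; colour is log2(CPM + 1) and the printed number is the CPM rounded to a whole number. Fgfr4 stands out in muscle, Fgfr3 in chondrocytes, and Fgfr2 in epithelium and chondrocytes, in both libraries. Dusp6 is highest in endothelial cells in both, but its interval there meets that of epithelial cells in library B.

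Fgfr1 (ENSMUSG00000031565, chromosome 8, 25513654 to 25575718 on the plus strand of GRCm38), the receptor most widely used in mesoderm, was the most abundant receptor, with 40955 UMIs in the kept cells. In library A its level was 216 CPM (212 to 221) in mesenchyme, 196 (191 to 202) in chondrocytes and 185 (172 to 200) in tendon cells. In library B the same classes had 199 (194 to 205), 200 (195 to 205) and 200 (179 to 223) CPM, and their intervals met. Osteoblasts followed with 156 and 124 CPM in libraries A and B, then Schwann cells with 102 and 91.2, endothelial cells with 88.7 and 79.8, pericytes with 77.7 and 88.1, and muscle with 85.1 and 67. Pericytes ranked above endothelial cells and muscle in library B and below both in library A. Outside the erythroid class, the lowest levels were those of the epithelial cells, 24.5 and 28.3 CPM. Within the mesenchyme, cells with UMIs of at least 2 of Twist2, Crabp1 and Foxd1 had 246 and 223 CPM of Fgfr1, and cells with UMIs of at least 2 of Osr1, Osr2 and Meox2 had 179 and 154.

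Fgfr2 (ENSMUSG00000030849), whose splice forms are known to divide between epithelium and mesenchyme, was led by the epithelial cells, with 147 CPM (128 to 168) in library A and 123 (110 to 138) in library B. Chondrocytes had 104 and 97.6 CPM, osteoblasts 54.7 and 67.4, mesenchyme 36.3 and 50.7, and muscle 4.33 and 2.16. Counts at the 3′ end do not tell its splice forms apart. RefSeq places it at chromosome 7, 130162451 to 130266808 on the minus strand. The GENCODE model reaches to 133123350 and overlaps 22 other counted genes on that strand, so the count of Fgfr2 is uncertain as far as reads could be shared with them.

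Fgfr3 (ENSMUSG00000054252, chromosome 5, 33721674 to 33737068, plus strand), the receptor that restrains cartilage growth, had 110 CPM (106 to 114) in the chondrocytes of library A and 84.0 (80.6 to 87.4) in those of library B. The next class, the osteoblasts, had 15.5 and 17.3 CPM, and every other class had under 10. A UMI of Fgfr3 was found in 53.8% and 44.8% of the chondrocytes, at medians of 11731 and 10593 UMIs, and in 1.71% and 4.49% of immune cells, at 12259 and 14204 UMIs. With each cell thinned to 2000 UMIs the shares were 17.2% (15.6 to 18.9) and 13.8% (12.4 to 15.3) of chondrocytes, against 0.87% and 0.731% of immune cells.

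Fgfr4 (ENSMUSG00000005320, chromosome 13, 55152640 to 55168759, plus strand), known as a receptor of embryonic myoblasts, was high in muscle, with 51.5 CPM (49.1 to 53.9) in library A and 31.3 (23.8 to 40.5) in library B. A UMI of it was found in 49.3% of the muscle cells of library A and in 0.855% of its immune cells, at medians of 14439 and 12259 UMIs. In library B the shares were 41.2% and 0.359%, at medians of 15131.5 and 14204 UMIs. At 2000 UMIs per cell the muscle shares were 9.33% (8.17 to 10.6) and 5.31% (1.97 to 11.2). Chondrocytes came second, with 9.46 CPM (8.36 to 10.7) and 5.69 (4.85 to 6.63), and the other classes had 1.70 CPM or less. As a measure of muscle RNA in other cells, the summed level of the muscle genes Actc1, Mylpf, Acta1 and Tnnt1 was set beside these values. In library A these 4 genes stood at 52.8 CPM in chondrocytes and 86.7 in mesenchyme, where Fgfr4 was at 1.68 CPM. In library B they stood at 9.65 and 26.3 CPM, with Fgfr4 at 0.73 in mesenchyme. The part of muscle RNA from outside the cell in the Fgfr4 counts of chondrocytes was not tested. Muscle held 71.0% of the Fgfr4 UMIs of library A and 19.3% of those of library B, where chondrocytes held 54.5%.

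The share of each receptor among the UMIs of all 4 gives the receptor make-up of a class. In muscle, Fgfr1 and Fgfr4 together made up nearly all receptor UMIs, with 59.2% and 35.8% in library A and 66% and 30.9% in library B. In chondrocytes, Fgfr1 had 46.8% and 51.6%, Fgfr2 24.7% and 25.2%, and Fgfr3 26.2% and 21.7%. In the epithelial cells Fgfr2 had 80.9% (75.7 to 85.4) and 77.8% (73.4 to 81.8). In tendon, neuron, Schwann, endothelial, immune and pericyte cells Fgfr1 had between 79.8% and 87.0%. Receptors were found in the same cells: of the chondrocytes, 37.9% in library A and 27.8% in library B had a UMI of both Fgfr2 and Fgfr3. Of the chondrocytes with a UMI of Fgfr3, 70.4% and 62.2% also had one of Fgfr2, against 60.7% and 54.8% of those without, but the former were also deeper, with medians of 14149 and 13439 UMIs against 9605 and 8983. The part of depth in this difference was not tested.

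**Figure D2:**
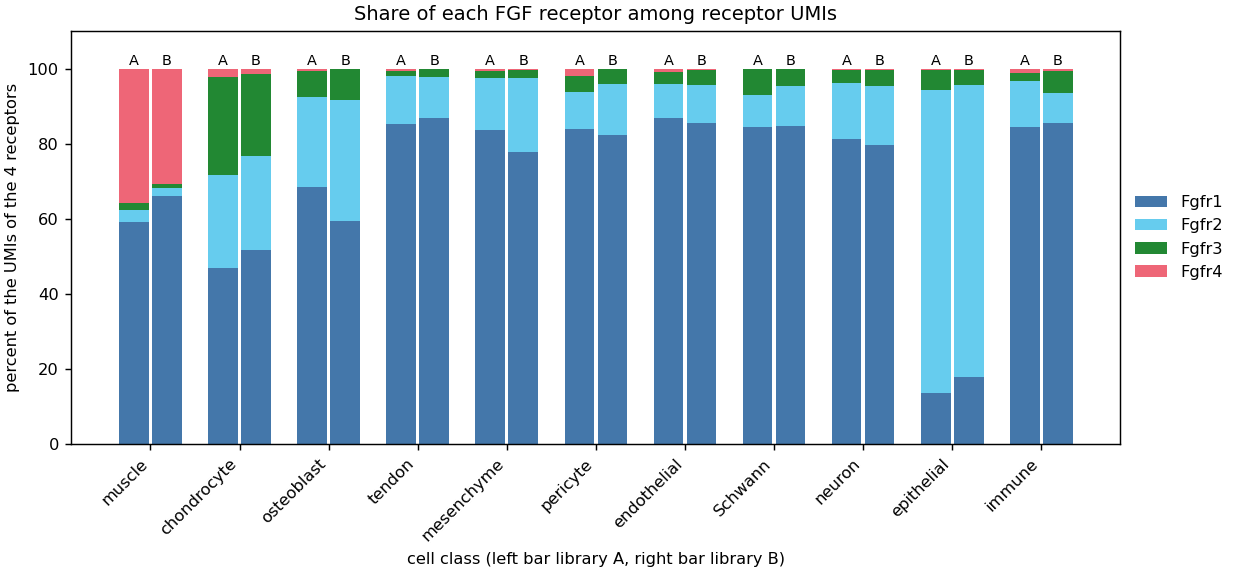
Share of Fgfr1, Fgfr2, Fgfr3 and Fgfr4 among the UMIs of the 4 receptors (vertical axis, percent) in 11 cell classes, with the left bar of each pair for library A and the right bar for library B. Fgfr4 takes 35.8% and 30.9% of receptor UMIs in muscle, Fgfr3 26.2% and 21.7% in chondrocytes, and Fgfr2 80.9% and 77.8% in the epithelium.

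To find genes with a like pattern, log2(CPM + 1) over the 24 columns of class and library was correlated with each receptor across 14478 genes. The columns share libraries and depth, so the coefficients are descriptions. Fgfr1 was most like Prdx4 (r = 0.95), Scarf2 (0.94) and Tmem263 (0.93). Fgfr2 was most like Kcnk1 (0.90), Rarg (0.88) and Phlda2 (0.88). Fgfr3 was most like Ihh (0.91), the hedgehog ligand of prehypertrophic cartilage, and the cartilage matrix genes Col11a2 (0.90) and Comp (0.89). Fgfr4 was most like Chrdl2 (0.91), the troponin gene Tnnt3 (0.88) and the homeobox gene Pitx3 (0.87).

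The 3 Sprouty genes, feedback inhibitors of receptor signalling, differed from each other in their classes. Spry1 (ENSMUSG00000037211, chromosome 3, 37639947 to 37644598, plus strand) was led by endothelial cells, with 125 CPM (116 to 135) in library A and 113 (108 to 118) in library B, and was low in chondrocytes, with 12 and 14.7. Spry2 (ENSMUSG00000022114, chromosome 14, 105891947 to 105896819, minus strand) was high in chondrocytes instead, with 90.5 (87.0 to 94.1) and 107 (104 to 111) CPM. Tendon cells had 90.4 and 102 CPM of Spry2, and their intervals met those of the chondrocytes. Pericytes had 93.6 (79.9 to 109) and 81.8 (65.8 to 100.4), which met the interval of the chondrocytes in library A and lay below it in library B. Spry4 (ENSMUSG00000024427, chromosome 18, 38586247 to 38601415, minus strand) was led by pericytes, with 60.7 (49.7 to 73.4) and 44.9 (33.4 to 59.2) CPM, followed by osteoblasts with 54.2 and 39.8, whose intervals met those of the pericytes. In chondrocytes Spry4 was at 23.7 and 17.5 CPM. Immune cells were low in all 3 Sprouty genes, between 2.27 and 12.2 CPM.

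Dusp6 (ENSMUSG00000019960, chromosome 10, 99263231 to 99267489, plus strand), the ERK phosphatase, reached the highest level of the 6 response genes. Endothelial cells had 245 CPM (232 to 259) in library A and 191 (184 to 198) in library B. Epithelial cells had 135 (117 to 155) and 178 (162 to 195) and Schwann cells 103 and 93.1. The intervals of endothelial and epithelial cells met in library B. Muscle had 18.6 (17.2 to 20.1) and 13.0 (8.31 to 19.3), among the low classes. The ETS factor Etv5 (ENSMUSG00000013089, chromosome 16, 22381309 to 22439719, minus strand) had a different order, with chondrocytes at 38.3 (36.1 to 40.7) and 23.8 (22.0 to 25.6) CPM and muscle at 36.1 (34.2 to 38.1) and 25.9 (19.1 to 34.4), and endothelial cells at only 6.50 and 3.34. Etv4 (ENSMUSG00000017724, chromosome 11, 101769742 to 101785371, minus strand) was the rarest of the 10 genes, with 934 UMIs in kept cells. Its highest level was in tendon cells, 16.7 CPM (12.9 to 21.3) in library A and 6.24 (2.99 to 11.5) in library B, and the value of library B rests on 10 UMIs. Epithelial cells came next, and their interval met that of the tendon cells in both libraries. The response genes thus did not all share a highest class, and classes high in Dusp6 could be low in Etv5. Over the 24 columns of class and library, pairs of the 6 response genes correlated positively. The share of all gene pairs that do so is not given here, so this is not read as a trait of the 6 genes. The coefficients ran from 0.26 for Spry1 and Etv5 to 0.83 for Spry2 and Spry4.

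Muscle cells were divided into progenitors, with a UMI of Pax7 and at most 1 of Myog, and myocytes, with at least 3 UMIs of Myog and none of Pax7. Pax7 is a transcription factor of muscle precursors and Myog one of differentiating cells. Library A held 1032 progenitors and 784 myocytes and library B 38 and 49. Spry1 and Spry4 differed in opposite directions between the 2 stages. Spry1 was at 61.3 CPM (57.6 to 65.3) in the progenitors and 26.9 (23.9 to 30.1) in the myocytes of library A, a log2 ratio of progenitor over myocyte of 1.19 (1.0 to 1.38). In library B it was at 53.8 (37.3 to 75.2) and 24.1 (14.5 to 37.7), a ratio of 1.16 (0.31 to 2.05). Spry4 was at 10.5 CPM (8.97 to 12.2) in the progenitors and 40.7 (37.1 to 44.7) in the myocytes of library A, a ratio of -1.96 (-2.22 to -1.70). In library B it was at 11.1 (4.46 to 22.8) and 53.3 (38.4 to 72.1), a ratio of -2.27 (-3.67 to -1.10) from 7 and 42 UMIs. Spry2 differed little, with 37.0 and 35.8 CPM in library A, a ratio of 0.05 (-0.13 to 0.24).

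A gene was counted as apart where its ratio was at least 2-fold with at least 50 UMIs over both groups. In library A, 9 of the 10 genes had 50 UMIs, and Spry1 and Spry4 were apart, beside 19.8% of 10997 genes. In library B, 3 genes had 50 UMIs, and Spry1 was apart, beside 13.6% of 3471 genes. In both libraries, Spry1 alone was counted, beside 8.93% of 3471 genes, since Spry4 had 49 UMIs in library B. Fgfr4 was higher in progenitors, with 57.8 and 38.6 CPM in library A, a ratio of 0.58 (0.42 to 0.75), and 41.2 and 20.3 CPM in library B, 1.02 (0.07 to 2.01). Etv5 was at 40.3 and 26.8 CPM, a ratio of 0.59 (0.39 to 0.79), and in library B at 42.7 and 16.5, 1.37 (0.37 to 2.45). Fgfr1 was at 94.0 and 72.1 CPM, a ratio of 0.38 (0.26 to 0.51), and in library B at 71.2 and 52.1, 0.45 (-0.19 to 1.10). The median ratio of all genes was 0.19 in library A and 0.12 in library B. Dusp6 stood at 17.7 and 17.6 CPM in library A. Fgfr2 and Fgfr3 were at 4.60 CPM or less in both stages of library A. In the myocytes of library B 0 UMIs of them were counted, where 3 counts would be a level of 3.81 CPM. At 2000 UMIs per cell the Spry1 ratio of library A was 0.72, under 2-fold, while that of Spry4 was -2.01. With a mitochondrial limit of 5% the Spry1 ratio of library B was 0.74. Among the 780 cycling and 252 non-cycling progenitors of library A, 0 of 8 genes with 50 UMIs were apart, beside 4.54% of 9875 genes.

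**Figure D3:**
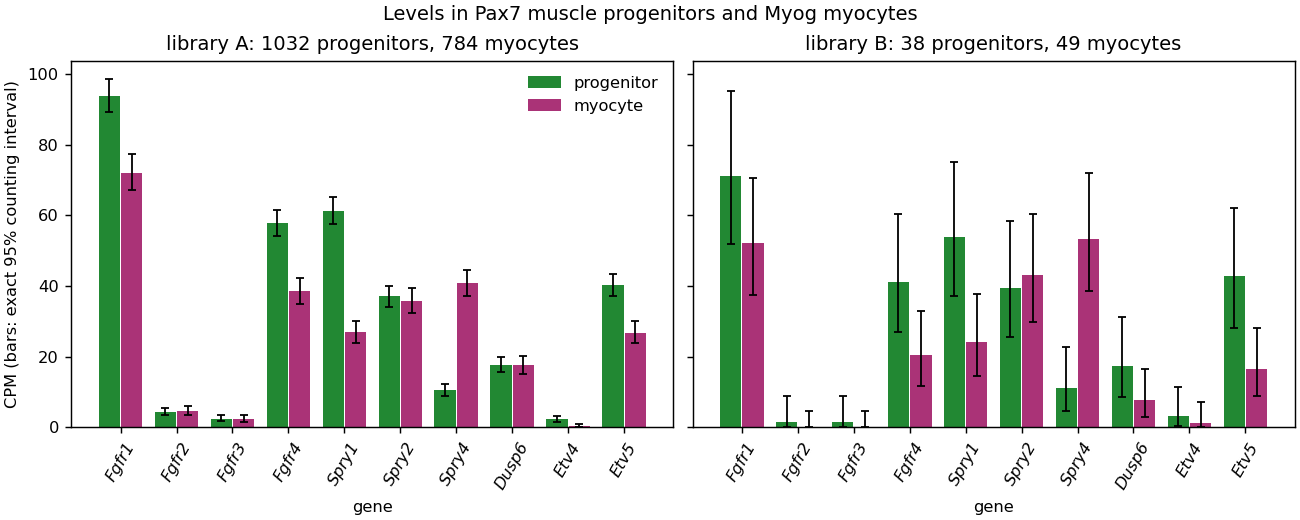
Level in CPM (vertical axis) of the 10 genes in muscle progenitors (green) and myocytes (purple) of library A, left, and library B, right; bars are levels and lines exact 95% counting intervals. Spry1 is higher in progenitors (61.3 against 26.9 CPM in library A) and Spry4 in myocytes (40.7 against 10.5), and the intervals of library B, with 38 and 49 cells, are wide.

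In cartilage, the prehypertrophic cells, set by UMIs of Ihh, Col10a1 and Pth1r, had another receptor make-up than the other chondrocytes. The limit of at least 3 UMIs from at least 2 of these genes did not separate prehypertrophic from hypertrophic cells. The cells called prehypertrophic here enlarge before bone replaces them. They were deeper than chondrocytes as a whole, with medians of 17926 and 18209 UMIs against 11731 and 10593. Fgfr3 was higher in them, with 175 CPM against 98.0 in library A, a log2 ratio of 0.84 (0.71 to 0.95), and 157 against 71.9 in library B, 1.13 (1.0 to 1.26). Fgfr1 was lower, with 119 against 210 CPM, a ratio of -0.81 (-0.95 to -0.68), and 97.0 against 217, -1.16 (-1.31 to -1.01). Fgfr2 was lower too, with ratios of -0.77 (-0.96 to -0.59) and -0.74 (-0.93 to -0.55). Fgfr3 thus made up 47.2% (44.7 to 49.7) and 48.6% (45.8 to 51.3) of receptor UMIs there. Spry1 had ratios of -1.16 (-1.81 to -0.57) and -1.0 (-1.57 to -0.48), Spry2 of -0.46 and -0.64, Dusp6 of -0.65 and -1.21 and Etv5 of -0.64 and -0.46, all with intervals below 0. Spry4 was at -0.48 (-0.84 to -0.13) and -0.17 (-0.57 to 0.21), and Etv4 at -1.64 and 0.23, from 6 and 11 UMIs in the prehypertrophic cells. Spry1 and Etv4 were counted as apart in library A and Fgfr1, Fgfr3, Spry1 and Dusp6 in library B, beside 8.08% and 11.9% of genes. At 2000 UMIs per cell the ratios of Fgfr3 were 0.99 and 1.15 and those of Fgfr1 -1.21 and -1.28. Over the alternatives, the ratio of Spry1 ranged from -2.85 to -0.64 in library A and from -1.05 to -0.40 in library B, and that of Dusp6 in library A from -0.77 to -0.33. The median of all genes was -0.13 and -0.20 in this comparison.

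Cycling chondrocytes, with at least 3 UMIs over 6 cell cycle genes, had more Etv4 than the rest, with 6.33 CPM against 2.66 in library A, a ratio of 1.25 (0.69 to 1.82), and 3.84 against 1.86 in library B, 1.05 (0.30 to 1.78). Etv4 was the 1 gene of the 10 counted as apart in both libraries, beside 4.16% of 11284 genes. Cycling cells were also deeper, with medians of 16188 and 16039 UMIs against 10533.5 and 9765. The Etv4 ratios rest on 62 and 28 UMIs in the cycling cells and 49 and 40 in the rest. With each cell weighing the same, the ratio of library B was 0.91, and without the deepest 10% of cells the ratios were 0.98 and 0.61. At 2000 UMIs per cell they were 0.32 and 1.62, from 5 and 2 UMIs in the cycling cells and 11 and 3 in the rest. Fgfr3 had ratios of 0.41 (0.30 to 0.51) and 0.17 (0.04 to 0.30). Over the alternatives its ratio in library B ranged from -0.03 to 0.18.

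Among endothelial cells, the lymphatic cells (169 in library A and 505 in library B), set by Prox1 and other lymphatic markers, were compared with the blood endothelial cells (139 and 238). Spry4 was lower in the lymphatic cells, with 19.1 CPM against 46.4 in library A, a ratio of -1.28 (-1.83 to -0.75), and 14.0 against 30.2 in library B, -1.11 (-1.50 to -0.73). Spry2 was higher in them, with 73.3 against 42.7 CPM, 0.78 (0.39 to 1.18), and 109 against 49.95, 1.12 (0.89 to 1.36). Spry1 was close to even, with 121 against 126 and 116 against 110 CPM. Fgfr1 was higher, with ratios of 0.75 (0.44 to 1.06) and 0.96 (0.73 to 1.2), and Dusp6 lower, with -0.73 (-0.91 to -0.55) and -0.24 (-0.36 to -0.11). Spry4 was counted as apart in both libraries, beside 7.69% of 7193 genes, and Spry2 and Etv4 in library B as well, beside 12.4% of 9633 genes in that library.

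**Figure D4:**
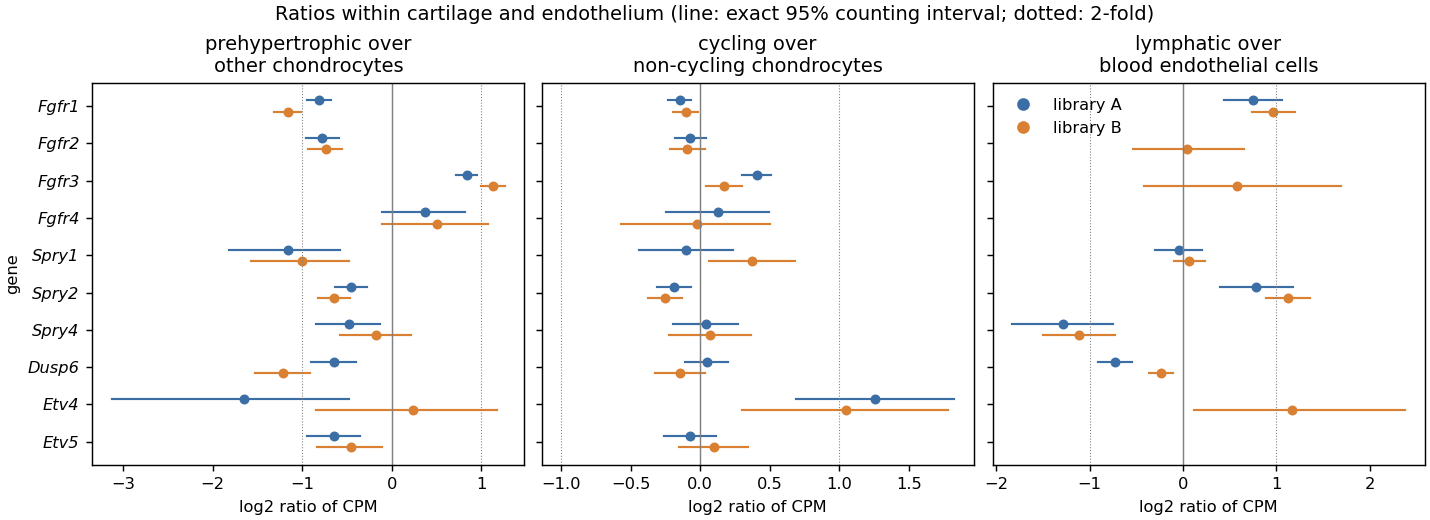
Log2 ratio of CPM (horizontal axis) of the 10 genes in prehypertrophic over other chondrocytes, cycling over non-cycling chondrocytes and lymphatic over blood endothelial cells, for library A (blue) and library B (orange), where at least 50 UMIs were counted; lines are exact 95% counting intervals and dotted lines mark 2-fold. Fgfr3 lies to the right and Fgfr1 to the left in prehypertrophic cells, and Spry4 and Spry2 lie on opposite sides in lymphatic cells, in both libraries.

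Between the libraries, most of the 10 genes differed by less than 2-fold within a class. Over all kept cells only Fgfr4 was counted, with 16.9 CPM in library A and 2.45 in library B, a log2 ratio of -2.79 (-2.97 to -2.62), beside 11% of 17243 genes. Library B (headed MKO/tdT, titled f/w) held 114 muscle cells against 2310, and within the muscle class the ratio of Fgfr4 was -0.72 (-1.12 to -0.34). Progenitors, the stage with more Fgfr4, were 1032 of the muscle cells in library A and 38 in library B. Fgfr4 was at 57.8 and 41.2 CPM in progenitors and at 38.6 and 20.3 in myocytes. In progenitors, 0 of the 8 genes with 50 UMIs, Fgfr4 among them, had an interval below 0. The part of the stages in the muscle ratio of Fgfr4 was not tested. Muscle was 18.4% of kept cells in library A and 1.10% in library B. The sum over all kept cells does not by itself tell fewer muscle cells from less Fgfr4 RNA per muscle cell. The part of the muscle share in the ratio over all kept cells was not tested. Within the muscle class, Fgfr2 and Fgfr3 were counted, with ratios of -1.0 (-2.90 to 0.38) and -1.40 (-4.47 to 0.49) that rest on 4 and 2 UMIs in library B, beside 9.17% of 11531 genes. Over the alternatives they ranged from -1.07 to -0.43 and from -2.12 to -0.96. Etv4 was counted in tendon cells, at -1.42 (-2.55 to -0.45), beside 2.31% of 8085 genes. Etv5 was counted in immune cells, at -1.12 (-1.94 to -0.25), beside 9.08% of 9130. That ratio rests on 19 and 41 UMIs in 117 and 557 cells of libraries A and B. The summed level of the immune markers was 7750 and 14746.5 CPM, and the part of the make-up of this class was not tested. Fgfr4 was counted in mesenchyme, at -1.2 (-2.02 to -0.45), beside 2.55% of 13710. In mesenchyme its level was 1.68 and 0.73 CPM, and the 4 muscle genes above were also lower, at 86.7 and 26.3 CPM. Their part in this difference was not tested. In chondrocytes, osteoblasts, neurons, Schwann cells, endothelial cells, pericytes and epithelial cells 0 of the genes with 50 UMIs were counted, beside 1.69%, 2.07%, 1.25%, 2.03%, 1.93%, 2.29% and 3.43% of genes in the same order. No gene of the 10 was counted as higher in library B in any of these classes, and in erythroid cells none had 50 UMIs.

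Smaller differences ran the same way in several classes for Etv5 and Spry4. Etv5 was lower in library B in 8 of the 9 classes with 50 UMIs, with an interval below 0 in 6 of them, and higher only in the epithelial cells. In chondrocytes its ratio was -0.69 (-0.83 to -0.55), in muscle -0.48 (-0.93 to -0.06), in endothelial cells -0.96 (-1.61 to -0.29), in neurons -0.66 (-1.14 to -0.18) and in mesenchyme -0.31 (-0.50 to -0.12). Of the 6375 genes with at least 9 such classes, 14.3% were lower in all but at most 1, and of 7253 genes with at least 8 classes, 4.83% had an interval below 0 in 6 or more and above 0 in none. Spry4 was lower in 6 of 8 classes, with an interval below 0 in chondrocytes at -0.44 (-0.61 to -0.27), osteoblasts at -0.45 (-0.84 to -0.07), tendon at -0.95 (-1.55 to -0.39), endothelial cells at -0.62 (-0.90 to -0.34) and mesenchyme at -0.53 (-0.68 to -0.39). Of the same 7253 genes, 11.1% had an interval below 0 in 5 or more classes. The share of all genes lower in 6 of 8 classes is not given here, so that count is not read as a trait of Spry4. In muscle Spry4 was higher in library B, at 0.49 (0.08 to 0.87). At 2000 UMIs per cell this ratio was -0.39, from 4 UMIs in library B. Within the muscle stages its ratio was 0.08 (-1.26 to 1.15) in progenitors and 0.39 (-0.10 to 0.85) in myocytes. Progenitors, the stage with less Spry4, were 1032 of 2310 muscle cells in library A and 38 of 114 in library B. Progenitors also had more Etv5 than myocytes in both libraries. The Etv5 levels given above were lower in library B in myocytes but not in progenitors. The part of the stages in the muscle ratios of Spry4 and Etv5 was not tested. Etv4 had ratios of -0.74 (-1.19 to -0.29) in chondrocytes and -0.83 (-1.30 to -0.38) in mesenchyme, but 0.45 (-1.48 to 1.88) in muscle. Fgfr4 had a ratio of -0.73 (-1.02 to -0.45) in chondrocytes, where the 4 muscle genes were at 52.8 and 9.65 CPM, and their part in it was not tested.

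The other genes differed in both directions. Spry2 was higher in library B in endothelial cells at 0.60 (0.42 to 0.79), neurons at 0.55 (0.18 to 0.93) and chondrocytes at 0.25 (0.17 to 0.32), and no class had an interval below 0. Lymphatic cells, the group with more Spry2, were 505 of 881 endothelial cells in library B and 169 of 356 in library A, and the ratio of Spry2 was 0.57 (0.34 to 0.81) among lymphatic cells and 0.23 (-0.16 to 0.62) among blood endothelial cells. Fgfr3 was lower in chondrocytes at -0.39 (-0.46 to -0.31), and at -0.51 (-0.65 to -0.38) among cycling and -0.28 (-0.37 to -0.18) among non-cycling ones. Fgfr2 was higher in mesenchyme at 0.48 (0.37 to 0.59). Dusp6 was higher over all kept cells at 0.50 (0.45 to 0.54), but lower in endothelial cells, its highest class, at -0.36 (-0.46 to -0.27). Over the alternatives the first ratio ranged from 0.32 to 0.51 and the second from -0.38 to -0.06. Lymphatic cells had less Dusp6 and less Spry4 than blood endothelial cells in both libraries. The part of the lymphatic share in the endothelial ratios of Dusp6 and Spry4 was not tested. Endothelial cells were 2.84% of kept cells in library A and 8.52% in library B, and the part of this in the ratio over all kept cells was not tested. Fgfr1 had ratios between -0.35 in muscle and 0.21 in epithelial cells over the 11 classes with 50 UMIs. The median ratio of all genes lay between -0.02 and -0.08 in these classes, except -0.17 in immune cells.

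**Figure D5:**
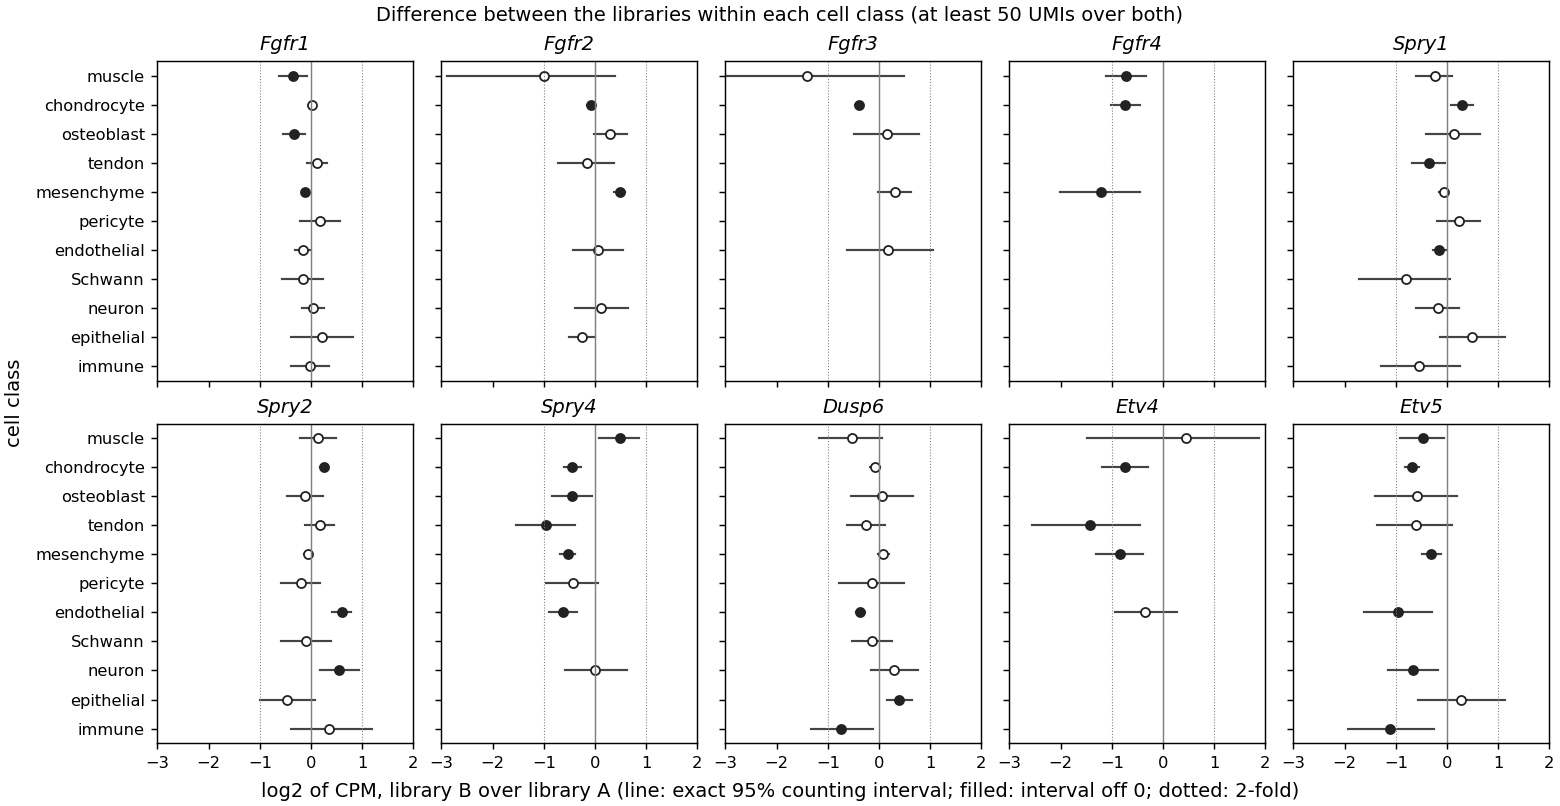
Log2 ratio of CPM in library B (headed MKO/tdT, titled f/w) over library A (horizontal axis) for each gene in 11 cell classes (vertical axis), shown where at least 50 UMIs were counted over both libraries; lines are exact 95% counting intervals, cut at the panel edge, filled points have intervals off 0, and dotted lines mark 2-fold. Etv5 lies left of 0 in 8 of 9 classes and Spry4 in 6 of 8, with muscle on the right. Of genes with at least 9 such classes, 14.3% were lower in all but at most 1, and no like share is given for Spry4.

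Signs of stress also differed between the libraries. The summed level of 8 early response genes, such as Fos and Egr1, was 4835 CPM in the chondrocytes of library A and 6309 in those of library B, 1732 and 2448 in muscle, and 9957 and 13354 in mesenchyme, but 6945 and 6285 in endothelial cells and 2733 and 1425 in immune cells. The summed level of 4 heat shock genes was 447 and 1351 CPM in muscle, 200 and 338 in chondrocytes, and 463 and 910 in endothelial cells, but 247 and 141 in immune cells. Early response genes are themselves targets of ERK. In endothelial cells, where the early response sum was lower in library B, both Etv5 and Spry4 were lower. They were also lower in chondrocytes and mesenchyme, where the sum was higher. In muscle, where the sum was higher too, Etv5 was lower and Spry4 higher. Other classes are not listed here, and the part of the early response genes in the ratios above was not tested.

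The ligands of the pathway were sparse. Of 18 secreted FGFs, 11 had at least 100 UMIs in the kept cells. Fgf18, a ligand of the skeleton, was the most abundant with 5327 UMIs, and tendon cells had 49.4 and 49.9 CPM of it, mesenchyme 34.1 and 34.5, and chondrocytes 20.8 and 27.3. Fgf2 was highest in chondrocytes, with 20.6 and 15.9 CPM. Fgf7 and Fgf10, which mesenchyme sends to the Fgfr2 of epithelium, were highest in mesenchyme, with 17.9 and 16.1 CPM of Fgf7 and 14.4 and 8.56 of Fgf10. Fgf9, Fgf16 and Fgf21 were highest in tendon cells, between 6.27 and 14.4 CPM, Fgf5 in Schwann cells with 12.8 and 13.6, and Fgf1 in neurons with 1.64 and 1.53. These highest levels rest on few UMIs, from 7 for Fgf1 in library A to 33 for Fgf9 in library A, and no interval is given for them. Fgf3 and Fgf22 stayed under 3 CPM, with a different highest class in each library.

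Over all kept cells, 2 ligands were at least 2-fold apart between the libraries, Fgf3 with a ratio of 1.60 and Fgf16 with -1.13, among 12 with 50 UMIs over both, beside the 11% of all genes in this comparison. Of the 15 coreceptors and related surface proteins with 50 UMIs, Gpc5 was higher at 1.70 and Gpc1 lower at -1.07. Of 10 other response genes, Etv1, a further ETS factor, was lower at -1.19, but within the muscle class, where it was highest, it stood at 48.8 and 48.6 CPM, and in tendon cells at 24.6 and 10.6, a ratio of -1.21 (-2.05 to -0.46). These counts lie near the share of all genes. Of the 9 adaptors, the 10 members of the Ras to ERK cascade and the 4 intracellular FGFs, 0 were 2-fold apart. Between progenitors and myocytes, the heparan sulfate proteoglycan Gpc3 was higher in progenitors in both libraries, with ratios of 1.73 and 1.99, beside the 8.93% of all genes. In library A alone, 6 of 12 coreceptors with 50 UMIs were at least 2-fold higher and 0 lower. Of 9 other response genes 3 were higher and 1 lower, of 7 ligands 2 and 2, and of 3 intracellular FGFs 1 and 1. Of 10 cascade members 1 was higher, and of 8 adaptors 0 were apart, beside 19.8% of all genes. In library B few genes of the list had 50 UMIs in this comparison, 0 ligands, 2 coreceptors, 3 adaptors, 7 cascade members and 3 other response genes, so most could not be counted in both libraries. Of these, 1 coreceptor was at least 2-fold higher in progenitors and 2 cascade members were lower, beside 13.6% of 3471 genes. Of the adaptors and other response genes 0 were apart.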

How the data were processed

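The authors prepared 1 library per genotype with 10x Genomics 3′ chemistry, mapped reads to mm10, called cells and aggregated both libraries with Cell Ranger, which the file headers give as version 5.0.0 and the submitters' processing notes as 3.1.0. What the authors deposited are UMI counts for every gene and barcode, not scaled per cell and before quality filters. The paper states that reads were down-sampled when the libraries were joined. How far this changed the counts of each library was not determined here. Barcode suffixes were matched to libraries by the number of barcodes in each library's own summary. Library A had 15268 barcodes and was 39.5% saturated, and library B had 12498 and was 45.9% saturated. The GRCm38 annotation that gave coordinates (GENCODE) held 99.6% of the identifiers.

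Cells over 10% mitochondrial UMIs were dropped, as were cells more than 2 SD from their library's mean in log10 UMIs or log10 genes. Cells that met the limits of more than 1 class (807 in library A and 800 in library B) were left out of the classes, doublets were not called, and a class was given with at least 20 cells. UMIs were summed per class and library and divided by all UMIs of the same cells. Intervals at 95% are exact Poisson intervals for sums, Clopper-Pearson intervals for shares, and intervals from the split of the counts for ratios. Where a class had no UMI, the level that 3 counts would give is stated, which is lower than the exact upper limit. Scripts were first tested on simulated counts. Python 3.11.15, NumPy 2.4.6, SciPy 1.17.1, pandas 2.3.3 and matplotlib 3.10.9 were used. Genes named are the 10 genes, Srsf2, the 3 genes most like each receptor among those with at least 200 UMIs, each ligand with at least 100 UMIs, and each other gene of the pathway list with at least 100 UMIs that was 2-fold apart between progenitors and myocytes in both libraries or between the libraries over all kept cells. The genes, lists and marker limits were chosen with earlier results of these data known, and the stress lists and the 4 muscle genes after the files were seen.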

Additional observations from a re-analysis of the deposited data

Results flagged for a closer look

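Of the 10 genes, 4 had a ratio of library B over library A with an interval below 0 in one class and above 0 in another. The share of all genes with such ratios is not given here, so the count is not read as a trait of the 10 genes. Each difference between classes was not tested, since there is 1 library per genotype. Fgfr2 had log2 ratios of -0.0875 in chondrocytes, where the median of all genes was -0.04, and 0.48 in mesenchyme. Spry1 had -0.35 in tendon cells and 0.29 in chondrocytes. Spry4 had -0.95 in tendon cells and 0.49 in muscle, where it was -0.39 at 2000 UMIs per cell, from 4 UMIs in library B. Dusp6 had -0.73 in immune cells and 0.40 in epithelial cells.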

How the results depend on the processing

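Results were recomputed without the 2 SD limits, with a mitochondrial limit of 5%, with doubled marker limits, with each cell weighing the same, without haemoglobin, mitochondrial and ribosomal protein genes in the denominator, at 2000 UMIs per cell, and without the deepest 10% of cells. The number of genes with the same highest class in both libraries, 7, ranged from 6 to 8, and by thinned shares, 5, from 4 to 6. The number of genes 2-fold apart between progenitors and myocytes in both libraries, 1, was 0 with the 5% limit, doubled marker limits, 2000 UMIs or without the deepest cells, since Spry1 then had under 50 UMIs in library B. The number for cycling chondrocytes, 1, was 0 with doubled marker limits, each cell weighing the same, 2000 UMIs or without the deepest cells, where the ratio of Etv4 was under 2-fold in a library or its UMIs under 50. The number of pairs of a gene and a class, with all kept cells as a further group, that were 2-fold apart between the libraries, 6, was 2 at 2000 UMIs, where fewer genes had 50 UMIs, and 4 to 7 otherwise. Of 157 ratios, between 146 and 157 could be compared under each alternative but 2000 UMIs, which left 96, and no 2-fold difference among those compared reversed. At 2000 UMIs, 37 of the 96 ratios lay outside the counting interval. With each cell weighing the same 12 did, and without the deepest cells 12, against 6 or fewer under each other alternative. Of ratios with an interval off 0, 2 changed sign at 2000 UMIs and 2 without the deepest cells. For prehypertrophic cells the alternatives were added after seeing the data. No paired analysis was possible because each genotype has 1 library without a replicate number, and no library could be left out. Levels rest on 1 library each, and muscle in library B rests on 114 cells.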
